A study of Mus musculus with 7 samples.

Results

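Chromatin accessibility was examined at the genes for Wnt ligands, Frizzled (Fzd) receptors, the coreceptors Lrp5 and Lrp6, and the secreted Dkk proteins Dkk1, Dkk2 and Dkk3, in mouse epiblast-like cells (EpiLCs) with and without Smad2 and Smad3. Members were all sites of the deposited accessibility table whose midpoint lay within 50 kb of a curated RefSeq transcription start site (TSS) of 34 listed genes, 19 Wnt, 10 Fzd, 2 Lrp and 3 Dkk. The rule found 133 of the 75880 sites. Distances are from the site's midpoint to the nearest TSS of the gene, with negative values upstream, and a site within 1 kb of that TSS is called a promoter site here (37 sites). The remaining 96 are called flank sites. The rule uses the position of sites and not the difference between genotypes. Only sites called as accessible in these data can be members, and the genes were listed with earlier results of these data known.

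Accessibility was measured by ATAC-seq, in which the transposase Tn5 cuts open chromatin and inserts sequencing adapters there. There were 3 libraries of wild-type (WT) and 3 of Smad2/3 double-knockout (DKO) EpiLCs, each from a separate differentiation and from 75000 cells per reaction, and 1 control library of Tn5-treated WT genomic DNA (100 ng). WT cells were the embryonic stem cell line CCE and DKO cells the clone KT15.1F6, both of strain 129/Sv//Ev. The DKO clone carried homozygous Smad2 and Smad3 mutations, and since each genotype is 1 clone, an effect of the clone cannot be told apart from that of the mutations. Both genotypes were kept as stem cells with LIF, a MEK inhibitor and the Gsk3 inhibitor CHIR99021, itself an activator of β-catenin signaling, and were then grown for 48 h (day 2) in 12 ng/ml Fgf2 and 20 ng/ml Activin A.

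Values are concentrations, the log2 of the mean normalised reads in a site, as the authors' DiffBind table gives them for each genotype. A concentration of 5 stands for 32 reads. Each is a mean over 3 libraries. Values per library, depth per library and the spread between differentiations are therefore unknown here, and no difference below has an error, a confidence interval or a test. A site is called lower or higher when DKO minus WT is past 1.5-fold (0.585 on the log2 scale). In a bulk sample, fewer cells with an open site and a less open site per cell cannot be told apart. The calls only describe size, and they are read against the share of all sites past the same fold.

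The cells were checked at the promoters of the inactivated genes and of markers. The Smad3 promoter site was at 5.42 in WT and at -0.10 in DKO, the lowest value listed for that genotype. The paper's DKO lines were made by deleting DNA around the first exon of Smad3, so this value cannot tell missing DNA from closed chromatin. The Smad2 promoter site was at 8.35 in WT and 8.28 in DKO and so does not show the mutation. Of 6 epiblast genes, 5 had a promoter site in the table, with WT concentrations of 5.66 to 7.71, and Otx2 had none within 1 kb. Of the genes of other cell types, Alb, Myod1, Gfap and Ins1 had no promoter site, while Cdx2, Gata4 and Sox17 had one at 7.24, 4.71 and 7.61 in WT. An open promoter does not show that a gene is expressed.

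Wnt proteins are secreted, lipid-modified ligands. They bind a Frizzled together with Lrp5 or Lrp6, which stops the destruction of β-catenin so that it can enter the nucleus and act with Tcf/Lef factors, while other Wnts signal through Frizzleds without β-catenin. Dkk1 blocks the pathway by binding Lrp5 and Lrp6. In the mouse epiblast, Wnt3 and Nodal, whose signal Smad2 and Smad3 carry, are both needed for the primitive streak to form.

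The sequences that go with the largest differences at Fzd10 and at the Dkk genes are shown so that a reader can see what DNA lies in them. They are the central 200 bases of the 2 sites lower in DKO near Fzd10 and of the site lower in DKO near each of Dkk1, Dkk2 and Dkk3, read from the RefSeq mm10 genome on the plus strand, and none overlaps an exon. The site 31751 bp upstream of Fzd10 is the one chosen by the naming rule, and the other 4 were added after their values were seen. Capitals mark matches on either strand to 5 strings, TGTGGATT for FoxH1, ATGCAAAT for the octamer of POU factors such as Oct4, GGATTA for Otx2, CTTTGAT for Tcf/Lef and GGCGCC for the GC-rich Smad element, of which the first can overlap the third by 5 letters.
Fzd10, 31751 bp upstream, chr5:128569255-128569454: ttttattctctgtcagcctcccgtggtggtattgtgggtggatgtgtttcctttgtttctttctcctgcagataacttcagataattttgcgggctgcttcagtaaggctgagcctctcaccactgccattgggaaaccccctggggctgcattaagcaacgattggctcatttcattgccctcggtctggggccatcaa
Fzd10, 4116 bp upstream, chr5:128596890-128597089: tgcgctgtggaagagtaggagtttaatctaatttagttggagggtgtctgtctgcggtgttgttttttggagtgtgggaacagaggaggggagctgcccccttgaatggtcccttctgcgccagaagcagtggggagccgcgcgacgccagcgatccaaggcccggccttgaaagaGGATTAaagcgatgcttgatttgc
Dkk1, 21911 bp downstream, chr19:30527485-30527684: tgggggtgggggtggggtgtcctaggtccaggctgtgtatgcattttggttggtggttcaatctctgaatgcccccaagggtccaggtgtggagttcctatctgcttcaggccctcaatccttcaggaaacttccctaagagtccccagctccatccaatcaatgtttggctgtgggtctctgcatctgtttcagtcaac
Dkk2, 7913 bp downstream, chr3:132093105-132093304: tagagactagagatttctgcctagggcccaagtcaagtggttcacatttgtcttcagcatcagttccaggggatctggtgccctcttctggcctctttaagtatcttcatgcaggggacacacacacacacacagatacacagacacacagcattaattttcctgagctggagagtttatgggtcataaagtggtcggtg
Dkk3, 14876 bp downstream, chr7:112143720-112143919: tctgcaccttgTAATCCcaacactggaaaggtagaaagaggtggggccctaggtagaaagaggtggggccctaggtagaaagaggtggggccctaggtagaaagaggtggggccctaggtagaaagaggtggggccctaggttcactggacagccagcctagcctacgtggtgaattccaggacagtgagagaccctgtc

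The Otx2 string is in the nearer Fzd10 site, 4116 bp upstream of the gene, and in the Dkk3 site, and the other 3 sequences hold none of the 5 strings. The Dkk3 stretch also repeats a short unit several times in tandem. Over the central 200 bases of all 133 member sites, the FoxH1 string was in 0 (0.73% of all 75880 sites), the octamer in 1 (2.35% of all), the Otx2 string in 4 (5.84% of all), the Tcf/Lef string in 4 (2.95% of all) and the Smad string in 18 (6.93% of all). Of the 13 member sites lower in DKO, 2 held the Otx2 string, those printed above, and 1 the Smad string, while the 10 higher sites held none of the 5. The Smad string, in 13.5% of member sites, is made only of G and C, and the sets were not matched for base composition or for the share of promoters. A match is a description of the letters and not a binding site.

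Most sites at the Wnt, Fzd, Lrp and Dkk genes had nearly the same concentration in DKO as in WT EpiLCs. The median DKO minus WT over the 133 member sites was -0.04, with an interquartile range of -0.25 to 0.20, against -0.08 (-0.39 to 0.20) over all sites. Of the member sites, 13 (9.77%) were lower in DKO and 10 (7.52%) higher, while 110 lay within 1.5-fold. Of all sites, 16.0% were lower and 8.51% higher. Of the 47687 sites within 50 kb of any TSS, a closer background, 12.7% were lower and 7.96% higher, with a median of -0.05. The member shares lay below or near both backgrounds. When each difference was measured from the median of all sites the member median became 0.04, and 11 member sites were lower and 15 higher, against 13.3% and 10.5% of all sites. The sign of the median and the balance of lower and higher calls therefore depend on that scaling.

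Sites with more signal passed 1.5-fold less often. Among all sites, 50.3% of those with a mean concentration below 4 passed it in either direction, 28.4% of those at 4 to 5, 17.2% at 5 to 6, 10.3% at 6 to 7 and 3.09% at 7 and above. Member sites past it numbered 15 of 34, 6 of 32, 2 of 31, 0 of 18 and 0 of 18 in the same classes. At 5 or more, 2 of 67 member sites were lower (2.99%) and 0 higher, against 8.46% and 3.09% of all sites at that level. Of the 66 weaker sites, 11 were lower and 10 higher, so nearly all calls at these genes came from sites with few reads. A call rule that allows for this counts the sites outside the 5th to 95th percentile of all sites in the same class, which held 4.93% of all sites below and 4.92% above. By it 3 member sites were lower and 5 higher, 8 of 133 (6.02%).

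**Figure D1:**
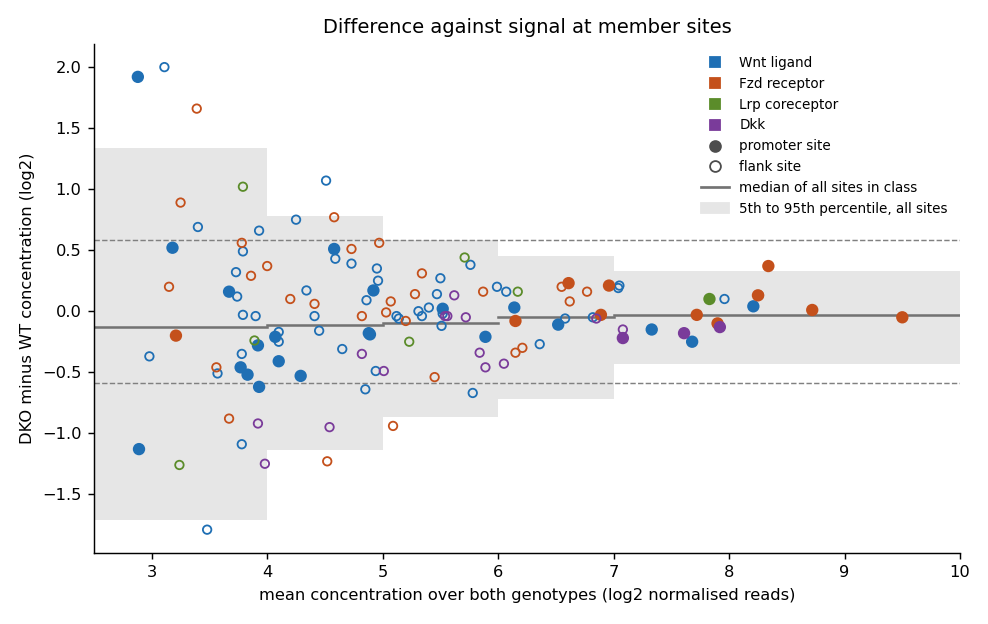
DKO minus WT concentration (log2) against mean concentration (log2 normalised reads) for the 133 member sites, filled at promoters and open in flanks, with colors for the role of the gene. Grey bands give the 5th to 95th percentile of all sites in each class of concentration, dashed lines mark 1.5-fold, and 8 member sites lie outside the bands.

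Promoters were compared with flanks. At the 37 promoter sites the median difference was -0.10 with an interquartile width of 0.31, and 2 were lower and 1 higher. Of all 15001 sites within 1 kb of a TSS, 4.17% were lower and 3.69% higher, and their median difference was 0.01. At the 96 flank sites the median was -0.02 with a width of 0.52, and 11 were lower and 9 higher. Of all 32686 sites lying 1 to 50 kb from the nearest TSS, 16.7% were lower and 9.92% higher. That background leaves out sites within 1 kb of any TSS, and 16 of the member flank sites lay that close to another gene's TSS, with 0 lower and 1 higher. Of the other 80, 11 were lower (13.8%) and 8 higher (10.0%). The promoter sites held more reads than the flanks, with a median WT concentration of 6.13 against 5.02, and differed less. They were also wider, with a median of 650 bp against 375 bp, and concentration is not corrected for width. Per kb of site the median was 105 normalised reads against 82.1 in WT, and 90.2 against 84.2 in DKO. The 3 promoter sites past 1.5-fold had mean concentrations below 4, and none of the 21 promoter sites at 5 or more passed it, their differences running from -0.25 at Wnt16 to 0.37 at Fzd8.

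**Figure D2:**
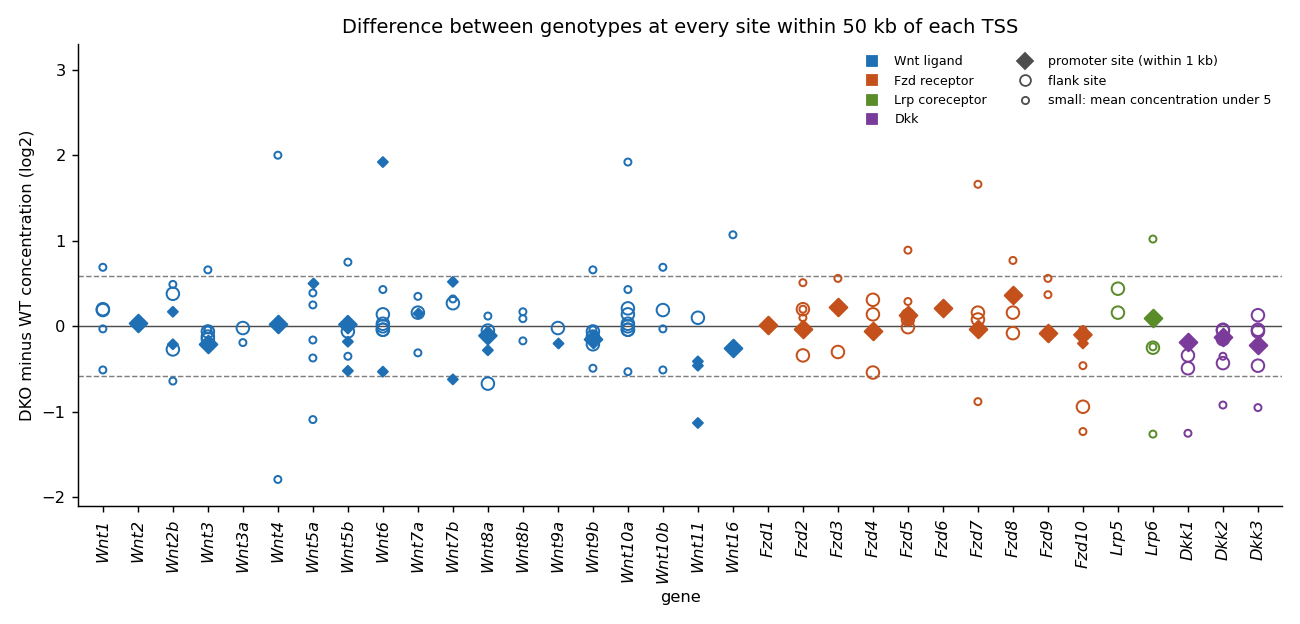
DKO minus WT concentration (log2) at every member site, by gene. Diamonds are promoter sites and circles flank sites, small symbols have a mean concentration under 5, dashed lines mark 1.5-fold, and a site near both of a pair of neighbouring genes is drawn at each. The large symbols past a dashed line are 1 site each at Wnt8a and Fzd10, both below it.

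A promoter site was present at 28 of the 34 genes, against 66.1% of 21000 curated protein-coding genes. All 10 Fzd genes, the 3 listed Dkk genes, Lrp6 and 14 of the 19 Wnt genes had one. Wnt1, Wnt3a, Wnt8b, Wnt10a, Wnt10b and Lrp5 had none in the table, which lists only called sites and so does not show that these promoters are closed. Levels are compared between genes as normalised reads per kb of site. At the strongest promoter site of each gene the WT median was 129 reads per kb over the Fzd genes, 156 over the Dkk genes and 101 over the 14 Wnt genes, against 144 over all protein-coding genes with a site. Without the spread between libraries, neighbours in this order cannot be told apart.

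**Figure D3:**
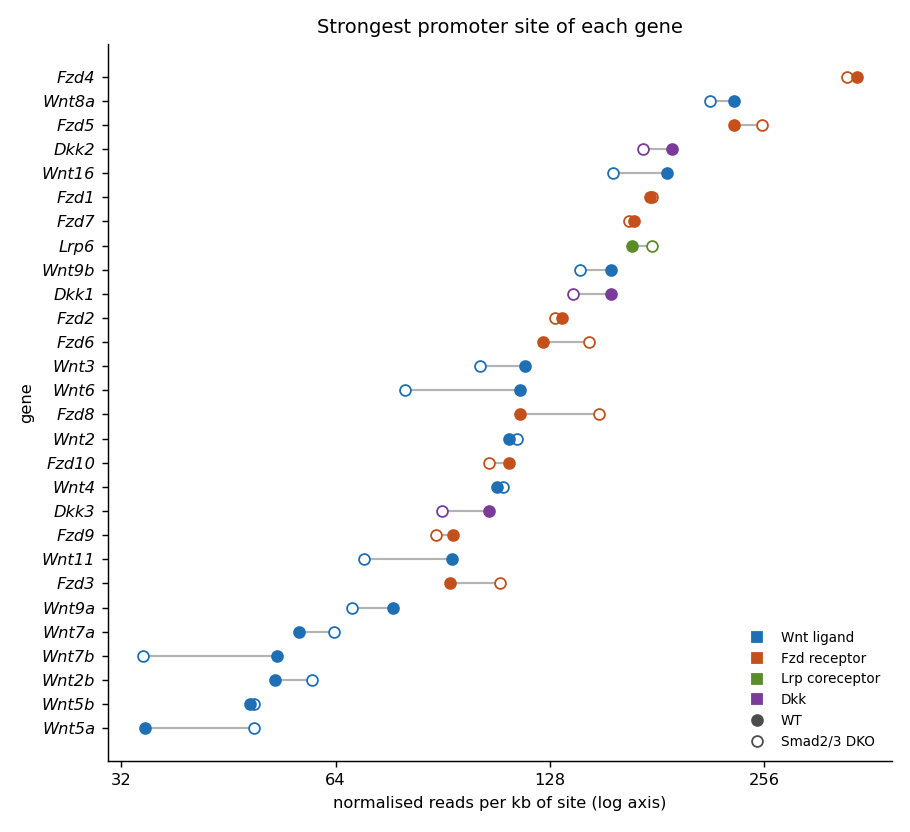
Normalised reads per kb (log axis) at the strongest promoter site of the 28 genes that have one, ordered by the WT value, with filled points for WT and open points for DKO. Fzd4 is highest at 345 in WT and 334 in DKO, and Wnt5a is lowest in WT at 34.6.

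Among the receptors, Fzd4, which also binds Norrin in the retina, had the strongest promoter site, at a concentration of 9.53 in WT and 9.48 in DKO (345 and 334 reads per kb). The promoter site of Fzd5, needed for the yolk sac and eye, was at 8.19 in WT and 8.32 in DKO. Fzd7, a main Frizzled of pluripotent stem cells, was at 7.73 and 7.70. In none of these did the genotypes differ by more than 0.13. The promoter site of Fzd8 was at 8.15 in WT and 8.52 in DKO, a difference of 0.37 that 3.38% of all sites in its class reach or exceed. It was the largest at any Fzd promoter. The strongest promoter sites of the remaining Fzd genes gave differences of 0.23 at Fzd3, 0.21 at Fzd6, 0.01 at Fzd1, -0.03 at Fzd2, -0.08 at Fzd9 and -0.10 at Fzd10. A further, weaker promoter site of Fzd10, 664 bp downstream of the TSS, was at 3.31 in WT and 3.11 in DKO. The coreceptor Lrp6 was at 7.78 in WT and 7.88 in DKO.

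Over all 40 receptor sites 3 were lower and 3 higher (7.5% each, against 16.0% and 8.51% of all sites), with a median difference of 0.09, and over the 7 coreceptor sites 1 was lower and 1 higher. Centring on the all-site median of -0.08 raises every site by the same amount, and the receptor median then was 0.17. By centring it could only rise, so its sign was not put to a test there. Over all alternatives the receptor median ran from 0.01, within 25 kb of a TSS, to 0.17. Fzd1 and Fzd6 had only their promoter site within 50 kb. Of the receptor sites at a mean concentration of 5 or more, the extremes were the Fzd10 site 31751 bp upstream (-0.94) and the Fzd8 promoter (0.37), and of the coreceptor sites the Lrp6 site 48267 bp upstream (-0.25) and the Lrp5 site 21706 bp upstream (0.44). That Lrp6 site lies in an intron of Mansc1, and that Lrp5 site 23 bp from the TSS of 1810055G02Rik.

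At Fzd10, all 6 sites had a lower concentration in DKO, with a median difference of -0.33. The site 31751 bp upstream, in intergenic DNA (chr5:128569090-128569620), was at 5.48 in WT and 4.54 in DKO, 1.92-fold lower. Of all sites with a mean concentration of 5 to 6, 4.14% were that far down. The site 4116 bp upstream, in an intron of the divergent noncoding gene Fzd10os (chr5:128596850-128597130), was at 5.01 in WT and 3.78 in DKO, a difference of -1.23 that 4.02% of all sites at 4 to 5 reach. Between them and the gene the strong promoter site was nearly equal, at 7.95 in WT and 7.85 in DKO. The 122 sites within 1 Mb of Fzd10 had a median of -0.24, lower than the -0.08 of all sites, and the part of this neighbourhood in the Fzd10 values was not tested.

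**Figure D4:**
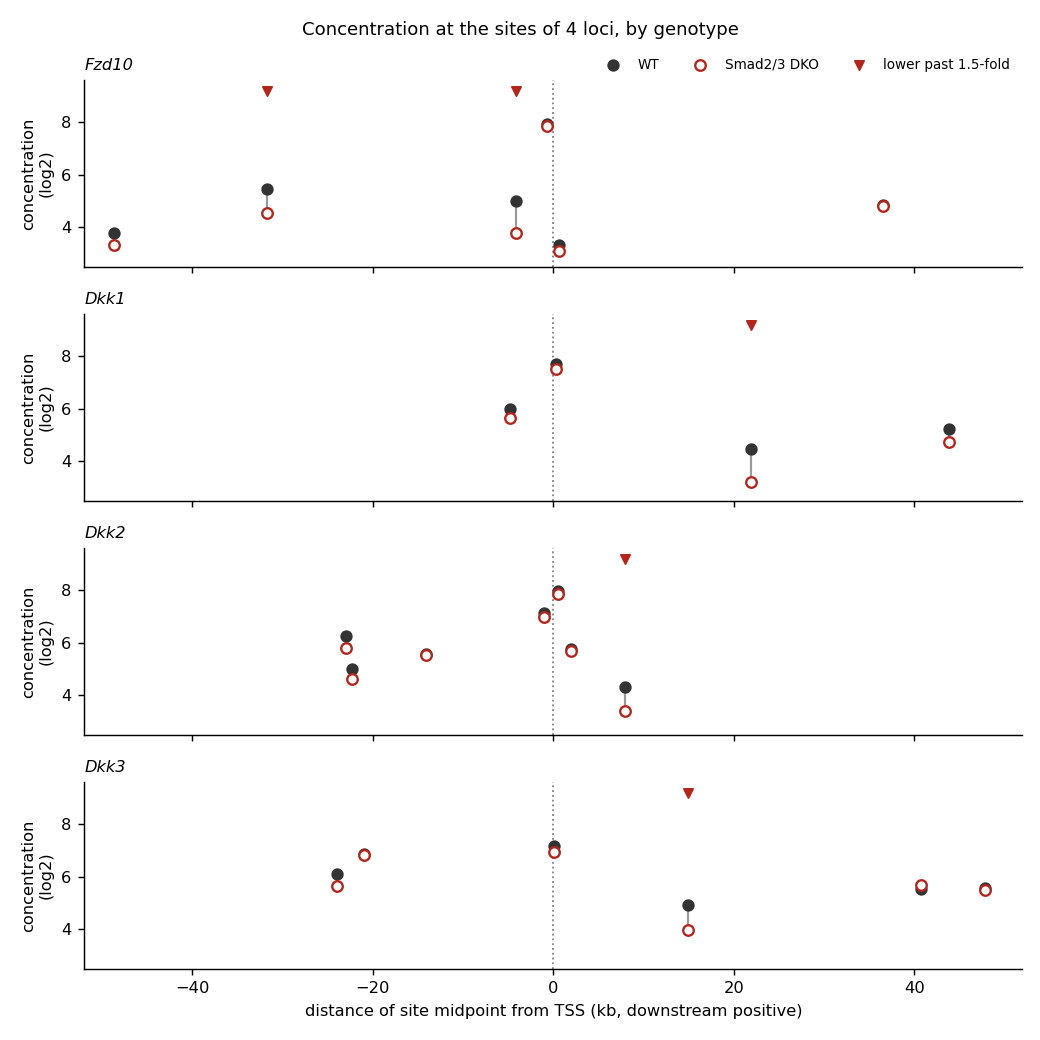
Concentration (log2 normalised reads) in WT (filled) and DKO (open) at each site within 50 kb of Fzd10, Dkk1, Dkk2 and Dkk3, by distance from the TSS in kb along the gene's strand. Triangles mark the sites lower in DKO past 1.5-fold, 2 at Fzd10 and 1 at each of the 3 Dkk genes, all away from the promoter.

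At Dkk1, Dkk2 and Dkk3, 16 of 17 sites had a lower concentration in DKO, against 57.4% of all sites, and the median difference was -0.22. Measured from the median of all sites, 12 of the 17 were below it and the median was -0.14. Of the 17, 3 (17.6%) were lower past 1.5-fold and 0 higher. Of all sites 16.0% were lower, and of those within 50 kb of a TSS 12.7%. None of the 13 Dkk sites at a mean concentration of 5 or more passed that fold. The sites of 1 gene share a locus, so the 17 stand for 3 loci. Sites within 1 Mb had medians of -0.04 at Dkk1, -0.19 at Dkk2 and -0.12 at Dkk3. The group was singled out after its values were seen. The fourth gene of the family, Dkk4, is not among the listed genes and had no promoter site. Both sites within 50 kb of it lay at the TSS of another gene, Vdac3 (28 bp away) and Polb (2 bp away). They had a higher concentration in DKO, by 0.35 at 30258 bp upstream (7.45 in WT) and by 0.19 at 29392 bp downstream (5.87 in WT). They may therefore say little about Dkk4 itself.

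Dkk1, an inhibitor of Lrp5 and Lrp6 needed for head formation, had 4 sites. Its promoter site was at 7.70 in WT and 7.52 in DKO, and the site 4814 bp upstream at 6.00 and 5.66. The intergenic site 21911 bp downstream of the TSS (chr19:30527450-30527720) was at 4.47 in WT and 3.22 in DKO, 2.38-fold lower, and the site 43896 bp downstream at 5.23 and 4.74. All 4 thus had a lower concentration in DKO, and the nearest TSS to the last 2 belongs to the pseudogene Ppp1r2-ps3.

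Dkk2 had 7 sites, all with a lower concentration in DKO and with differences of -0.92 to -0.04. Its promoter site was at 7.98 in WT and 7.85 in DKO, and the intron site 7913 bp downstream (chr3:132093030-132093380) at 4.31 and 3.39. The strongest of its flank sites, 1017 bp upstream, was at 7.15 in WT with a difference of -0.15. The largest difference at a Dkk2 site with a mean concentration of 5 or more was -0.43, at 23007 bp upstream.

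Dkk3, a divergent member of the family, had 6 sites. Its promoter site was at 7.18 in WT and 6.96 in DKO, the intron site 14876 bp downstream (chr7:112143600-112144040) at 4.94 and 3.99, and the site 23953 bp upstream at 6.10 and 5.64. The site 40716 bp downstream, at 5.55 in WT and 5.68 in DKO, was the only site of the 3 genes with a higher concentration in DKO. Among their sites at a mean concentration of 5 or more it had the highest difference (0.13), and the site 43896 bp downstream of Dkk1 the lowest (-0.49).

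The 69 ligand sites gave 6 lower and 6 higher (8.7% each, against 16.0% and 8.51% of all sites), with a median of -0.04 that became 0.04 when centred on all sites. Of the 26 at a mean concentration of 5 or more, 1 was lower and 0 higher. The strongest promoter site was below 0 in 8 of 14 ligands and above 0 in 6, and only Wnt7b passed 1.5-fold.

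The 6 ligands of the streak and early mesoderm were Wnt3, Wnt3a, Wnt8a, Wnt5a, Wnt5b and Wnt11. Of their 30 sites 3 were lower (10.0%) and 2 higher (6.67%), against 16.0% and 8.51% of all sites. The median was -0.12, and 22 (73.3%) had a lower concentration in DKO, against 57.4% of all sites. Centred on all sites, 16 of 30 were below the median of all sites and their own median was -0.03. Wnt3, required for the streak, had its promoter site at 5.99 in WT and 5.78 in DKO, and an intron site 21350 bp downstream at 5.57 and 5.45. At 4 of its 7 sites the mean concentration was 5 or more, and there the differences ran from -0.21 to -0.06. Wnt3a, which acts in trunk and tail mesoderm, had no promoter site, and both sites within 50 kb lay at Wnt9a, its neighbour on the chromosome.

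Wnt8a, expressed in the posterior epiblast, had the most accessible ligand promoter per kb, at 232 reads in WT and 215 in DKO (concentrations of 6.57 and 6.46). An intergenic site 9728 bp downstream of its TSS (chr18:34551700-34552410) was at 6.07 in WT and 5.40 in DKO, a difference of -0.67. It was the only ligand site at a mean concentration of 5 or more past 1.5-fold, and 9.46% of all sites in its class were that far down. The highest difference at a ligand site of that level was 0.38, at 31191 bp upstream of Wnt2b.

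Wnt5a and Wnt11, which signal mostly without β-catenin, had promoter sites with few reads. The strongest at Wnt5a was at 4.30 in WT and 4.81 in DKO, and the strongest at Wnt11 at 4.29 and 3.88. Per kb, Wnt5a was the lowest of the ligands in WT at 34.6 reads, while Wnt11 at 93.2 was near the ligand median. A further Wnt11 promoter site, 263 bp downstream of a TSS, was at 3.35 in WT and 2.22 in DKO. Another, 680 bp upstream of a TSS, differed by -0.46, so all Wnt11 promoter sites had a lower concentration in DKO. The strongest Wnt5b promoter site was at 5.51 in WT and 5.53 in DKO. Its weaker ones, 179 bp upstream and 761 bp downstream of a TSS, differed by -0.18 and -0.52. No direction was shared by the strongest promoter sites of these genes, while the weaker ones were all lower in concentration in DKO.

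Besides Wnt8a, 4 ligands had promoter sites at a mean concentration of 6 or more. Wnt2, which acts in lung budding, was at 8.19 in WT and 8.23 in DKO. Wnt16, which acts in bone, was at 7.80 and 7.55. Wnt9b, an inducer of kidney tubules, was at 7.40 and 7.25. Wnt4, which acts in the kidney and the ovary, was at 6.13 and 6.16. At these ligands the promoter differed by at most 0.25 between genotypes.

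At promoter sites with fewer reads the differences were wider and ran both ways. They were 0.17 at Wnt2b (4.83 in WT), 0.16 at Wnt7a (3.58), -0.19 at Wnt9a (4.98), -0.53 at Wnt6 (4.53) and -0.62 at Wnt7b (4.21). At Wnt6, a further promoter site 113 bp downstream of the TSS was at 1.62 in WT and 3.54 in DKO, a difference of 1.92 in the opposite direction from its neighbour 332 bp upstream. A further Wnt7b promoter site, 89 bp upstream of a TSS, was at 2.90 in WT and 3.42 in DKO. A further one of Wnt2b, 776 bp upstream, was at 4.17 and 3.96. Both differed in sign from the strongest promoter site of their gene. Wnt4 likewise had sites of opposite sign in its introns, where a site at 1950 bp went from 1.79 in WT to 3.79 in DKO and one at 5485 bp from 4.12 to 2.33. Fzd7 had a site with a difference of 1.66 and another with -0.88, and Lrp6 one with 1.02 and one with -1.26. In all, 12 genes had a lower site, 13 a higher one, 3 of them both, and 12 neither. A site shared by neighbouring genes counts for each of them here. The higher sites near Wnt1 and Wnt10b, Wnt3 and Wnt9b, and Wnt6 and Wnt10a are such sites. Over unique sites 13 were lower and 10 higher, and the same share over all genes was not computed.

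Neighbouring genes shared sites. The pairs Wnt6 and Wnt10a, Wnt3 and Wnt9b, Wnt1 and Wnt10b, and Wnt3a and Wnt9a shared 8, 6, 4 and 2 sites, so the 34 genes had 153 gene and site pairs. Wnt10a, which acts in teeth and hair, had 9 sites but none within 1 kb, and its 6 sites at 5 or more ran from -0.04 to 0.21. The sites near Wnt1 and Wnt10b lay at other genes, such as Arf3, Ddn and Prkag1, and the 3 of Wnt8b had differences of -0.17 to 0.17. At the edge of the window, the outermost sites taken were at 48681 bp from Fzd10 (-0.46), 48281 bp from Fzd2 (0.20) and 48267 bp from Lrp6 (-0.25), and the nearest left out at 50150 bp from Wnt10b (-0.09), 50261 bp from Dkk1 (-0.33) and 50822 bp from Lrp6 (-0.85).

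The promoters of Fzd1 and Wnt3a are shown because one has a strong site and the other, although dense in CG, has none listed. RefSeq promoter sequences (GRCm38.p6) were matched for 23 of the 34 genes, too few to compare the set. These 2 were chosen after their values were seen, and the 200 bases before each TSS are printed on the gene's strand with CG dinucleotides in capitals. The Fzd1 stretch, with 10 CG, lies under a site at 8.71 in WT and 8.72 in DKO, while the Wnt3a stretch has 33 CG and no site closer than 16124 bp. Over 27025 genes in that table the median was 5 CG, and 34.7% had at least as many as Fzd1 and 1.4% at least as many as Wnt3a.
Fzd1, minus strand, chr5:4758217-4758416: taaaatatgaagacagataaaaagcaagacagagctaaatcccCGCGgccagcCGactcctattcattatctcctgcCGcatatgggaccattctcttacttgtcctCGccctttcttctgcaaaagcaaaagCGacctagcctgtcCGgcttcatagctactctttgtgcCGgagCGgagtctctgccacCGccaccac
Wnt3a, minus strand, chr11:59290752-59290951: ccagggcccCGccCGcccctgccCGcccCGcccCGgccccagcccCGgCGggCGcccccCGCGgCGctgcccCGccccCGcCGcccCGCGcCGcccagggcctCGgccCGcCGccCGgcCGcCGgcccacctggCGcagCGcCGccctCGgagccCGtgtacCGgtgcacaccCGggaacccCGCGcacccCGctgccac

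The other genes of the pathway, 37 in a list of secretion factors, antagonists, R-spondins with their receptors, further receptors and intracellular components, had 196 sites, of which 24 were lower and 15 higher with a median of 0.02. By role, 4 of 15 secretion sites were lower and 1 higher, 9 of 48 antagonist sites lower and 2 higher, 4 of 42 in the R-spondin group lower and 1 higher, 4 of 31 at other receptors lower and 4 higher, and 3 of 60 at intracellular components lower and 7 higher. Their shares over the list were 12.2% lower and 7.65% higher. These lay near the 12.7% and 7.96% of all sites within 50 kb of a TSS, and below or near the 16.0% and 8.51% of all sites. Of 123 sites with a mean concentration of at least 5, 3 were lower and 2 higher past 2-fold, against 2.25% and 0.589% of all sites at that level. Kremen1, a receptor for Dkk1 that removes Lrp6 from the cell surface, had both of its sites higher in DKO, the promoter at 4.96 in WT and 6.54 in DKO and an intron site 21530 bp downstream at 3.44 and 5.89. Those lower lay 13251 bp upstream of Kremen2 (-1.32), 33408 bp downstream of the R-spondin gene Rspo4 (-1.21) and 45661 bp upstream of the receptor-like kinase gene Ptk7 (-1.06). The sites near Kremen2 and Ptk7 lie in introns of Flywch1 and Klhdc3.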

How the data were processed

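ATAC-seq libraries of day 2 WT and Smad2/3 DKO EpiLCs were aligned by the authors to mm10 with bowtie2. Unique reads outside blacklisted regions were kept and duplicates removed (Samtools), sites were called against the genomic DNA control (DANPOS2), and DiffBind compared the genotypes. Tool versions, the normalization used by DiffBind and any shift of reads for Tn5 are not given in the sources used here. The deposited table gives log2 mean normalised reads over both genotypes and within each, and these log2 values were used as the authors' means. Its fold change, p-value and FDR columns hold the authors' own comparison and were not used. Depth per library is unknown, and a test on counts, or any test over libraries, could not be run.

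DKO minus WT, distances to 31647 curated TSSs of 26180 genes (GRCm38.p6 RefSeq, the same build) and string matches were computed in Python 3.11.15 with pandas 2.3.3 and numpy 2.4.6. The window, the nearest distance and the fold cut were tested on simulated data. The computation of DKO minus WT and the string matching were not. The members and lists were chosen with earlier results of these data known. Named with values were the strongest promoter site of each gene, every member site past 1.5-fold with a mean concentration of at least 5, the extremes at that level in each role, and other pathway sites past 2-fold at that level. Other sites were named after their values were seen. Alternatives were other folds, centring, concentration minimums, windows, transcripts, promoter widths and site subsets. The percentile rule was added after seeing the data. The result for 1 marker gene is not reported here.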

Additional observations from a re-analysis of the deposited data

How the results depend on the processing

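No paired analysis was possible because the table holds genotype means without replicate numbers, and for the same reason no library could be left out. For the member and pathway results, without the separate Dkk, receptor, ligand and streak groups, 87 values were recomputed. Of these, 59 stayed within range (1.5 times for a count, the 95% order-statistic interval for a median) and 28 moved. That interval is taken over sites, which share loci and are not replicates. It is only a yardstick for a shift and does not measure the spread between libraries or differentiations. The member sites lower and higher in DKO, 13 and 10 as reported, were 11 and 15 after centring, 6 and 5 past 2-fold, 29 and 23 past a lower fold threshold, 2 and 0 at a mean concentration of at least 5, 0 and 0 at 6, and 28 and 17 within 100 kb. The higher count was 5 within 25 kb and 6 for sites whose nearest TSS was the listed gene's. By the percentile rule they were 3 and 5. Pathway sites lower and higher, 24 and 15 as reported, were 8 and 5 past 2-fold, 42 and 42 past a lower fold threshold, 6 and 5 at a mean concentration of at least 5, 3 and 1 at 6, and 41 and 29 within 100 kb. The lower count was 15 within 25 kb and the higher count 8 by nearest TSS. Fewer sites enter the stricter rules and more the wider ones. The median WT concentration at member promoter sites, 6.13, was 7.70 at a mean concentration of at least 5 and 7.73 at 6, by construction. Over all alternatives the median difference ran from -0.05 to 0.04 over member sites, from -0.11 to -0.02 at promoters, from -0.04 to 0.08 in flanks and from -0.28 to -0.14 over Dkk sites, so of these the promoter and Dkk medians kept their sign and the other 2 did not. Leaving out chromosome 6, other transcripts and other promoter widths moved no count or median beyond its range.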
